A study of Homo sapiens with 12 samples.

Results

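The WAVE complex, its ABI subunits and the related Ena/VASP proteins were followed at the mRNA level through 10 genes, ABI1, ABI2, WASF1, WASF2, WASF3, CYFIP1, CYFIP2, NCKAP1, EVL and ENAH. They were taken by symbol from the count table, where all 10 are listed among 49651 genes with counts. D283 is a medulloblastoma cell line. Its control cells received scrambled controls and the other cells carried a genetic inactivation of ABL1 and ABL2, here called the inactivated cells. Each group had 3 RNA libraries, each sequenced on 2 lanes that were added together. How ABL1 and ABL2 were inactivated, and whether a group was 1 clone or a pool, is not stated in the labels. They also do not say that libraries came from separate cultures, so p-values measure the spread between these libraries, which may be technical.

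The WAVE complex turns on the ARP2/3 complex, which builds branched actin networks at the leading edge of migrating cells and growth cones. A WASF (WAVE) protein carries the part that activates ARP2/3. It is held inactive in a complex with a CYFIP, NCKAP1, an ABI and the small subunit BRK1 until RAC binds the CYFIP subunit. ABI proteins are named as ABL interactors, and Ena/VASP proteins, which include EVL and ENAH, lengthen unbranched filaments and bind ABI and profilin.

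Libraries held 33505903 to 49034159 counts. Levels are CPM, counts scaled to the library total, after scaling by trimmed mean of M values (TMM). ABL1 stood at 157, 148 and 154 CPM in the control libraries and at 62.1, 62.3 and 61.1 CPM in the inactivated ones, a log2 fold change of -1.31 ± 0.043 (SE). ABL2 stood at 144, 136 and 134 against 97.6, 112 and 102 CPM (-0.41 ± 0.051). Both targeted genes were lower in every inactivated library than in any control library. Of 8 markers of Group 3 medulloblastoma 7 passed the filter on low counts. Their summed level was 2259 to 2290 CPM in control and 2524 to 2621 CPM in inactivated libraries, and NRL had no read. They moved both ways: OTX2 fell from 830 to 666 CPM and NEUROD1 from 28.5 to 17.8 CPM, while IMPG2 rose from 66.7 to 316 CPM and CRX from 51.5 to 95.8 CPM, as did NPR3 and MYC. EOMES was low throughout, with a mean of 0.568 CPM in control and 0.122 CPM in inactivated libraries. Of 5 epithelial markers 2 passed the filter, and the list's sum was 17.7 to 19.8 CPM in control and 235 to 275 CPM in inactivated libraries. These were the keratin genes KRT8, which rose from 18.6 to 252 CPM, and KRT18, which rose from 0.280 to 3.76 CPM, while EPCAM, CDH1 and KRT19 were at most at 0.0864 CPM in any library. The fibroblast list summed to between 42.7 and 46.2 CPM in control and between 33.4 and 36.9 CPM in inactivated libraries. In it PDGFRB, DCN and COL1A2 had lower means in inactivated libraries, with PDGFRB at 32.8 CPM in control and 18.9 CPM in inactivated ones. COL1A1, at 8.11 against 15.1 CPM, and LUM had higher means, and COL3A1 had no read. The endothelial list lay between 4.12 and 4.46 CPM in control and between 9.66 and 11.02 CPM in inactivated libraries. In it only KDR was much higher, at 2.22 against 8.41 CPM. VWF stood at 2.01 against 1.86 CPM, and PECAM1 and CDH5 were at most at 0.113 CPM in any library. The blood cell list was at most at 1.02 CPM and the astrocyte list at 0.222 CPM in any library. The part of these shifts in the results below was not tested. In bulk RNA, fewer cells of a type and less RNA per cell cannot be told apart.

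Of the 10 genes, 9 had enough reads for edgeR's quasi-likelihood test. Of these, 3 rose (ABI1, WASF1 and EVL), 3 fell (ABI2, WASF3 and CYFIP2) and 3 did not pass an adjusted p of 0.05 (WASF2, NCKAP1 and ENAH). The called share was 66.7% of the tested members, beside 59.3% of all 14704 genes tested, of which 29.6% rose and 29.7% fell. A change of at least 1.5-fold was called for 4 members, CYFIP2, EVL, ABI1 and WASF3, which is 44.4% beside 24% of all genes. Control and inactivated libraries did not overlap for 7 of 9 members (77.8%), beside 63.2% of all genes. The median log2 fold change was -0.045 for the members and 0.0031 for all genes, and the median size of the change was 0.37 and 0.27. The plot of levels by library shows the 10 genes side by side.

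**Figure D1:**
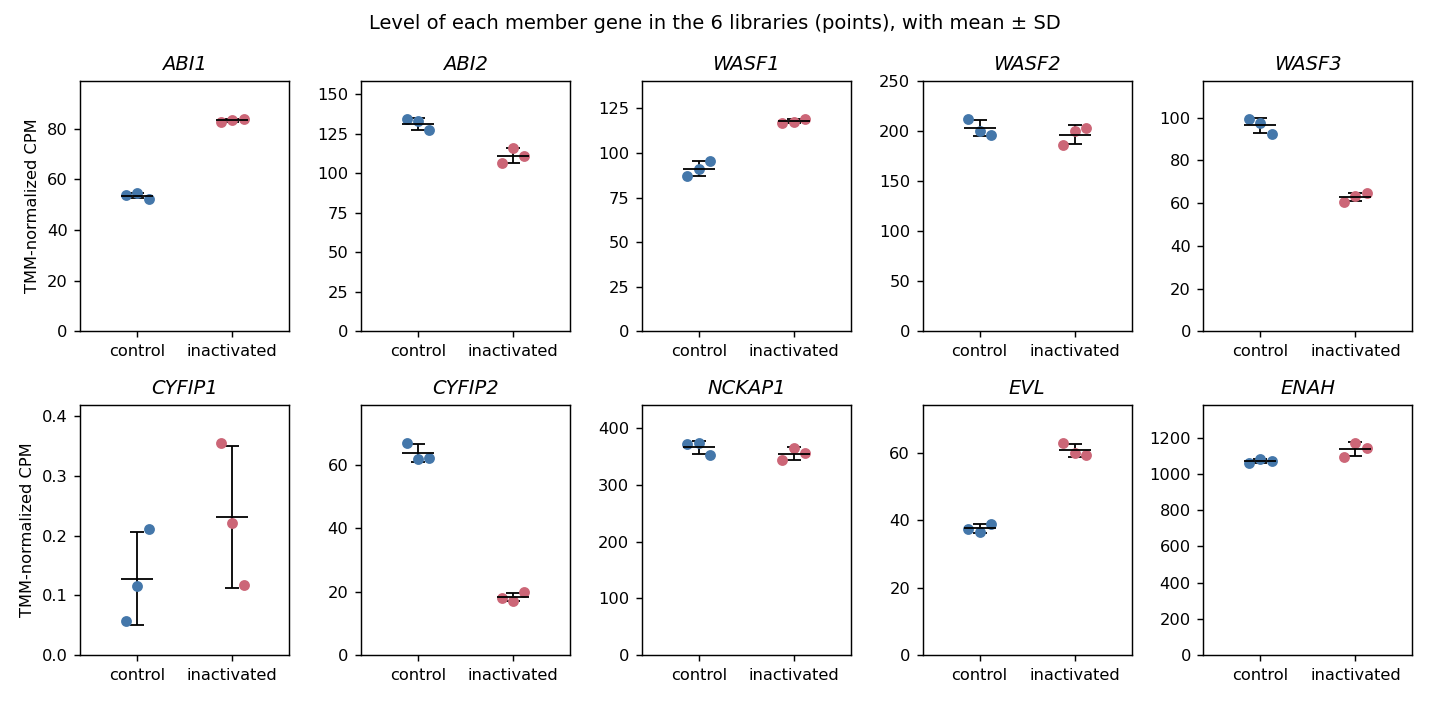
Level of each of the 10 genes in TMM-normalized CPM (y axis, starting at 0, its own scale for each gene) in 3 control and 3 inactivated libraries (points), with bars for mean ± SD. CYFIP2 fell to 18.3 CPM in inactivated libraries from 63.7 CPM, ABI1 and EVL were higher in each inactivated library than in any control library, and CYFIP1 stayed under 0.4 CPM throughout.

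CYFIP2 fell more than any other member and ABI1 and EVL rose most, so the 250 bases before the RefSeq start site of these 3 genes are shown (GRCh38.p14, gene strand, 5′ to 3′). The table of promoters held 9 of the 10 genes and no entry for WASF2. Capitals mark the SP box GGGCGG, read on both strands, and the E-box CACGTG.

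CYFIP2, chr5:157265873-157266122, forward strand: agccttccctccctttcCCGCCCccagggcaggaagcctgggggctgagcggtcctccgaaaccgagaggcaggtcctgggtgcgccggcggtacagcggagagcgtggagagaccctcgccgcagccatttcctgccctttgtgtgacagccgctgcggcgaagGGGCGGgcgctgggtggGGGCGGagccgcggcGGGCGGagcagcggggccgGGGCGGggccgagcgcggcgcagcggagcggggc
EVL, chr14:99971172-99971421, forward strand: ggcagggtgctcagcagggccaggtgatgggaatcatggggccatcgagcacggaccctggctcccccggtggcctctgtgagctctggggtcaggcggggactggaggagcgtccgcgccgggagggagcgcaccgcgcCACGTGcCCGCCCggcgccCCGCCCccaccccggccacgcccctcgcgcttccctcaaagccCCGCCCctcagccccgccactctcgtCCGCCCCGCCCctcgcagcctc
ABI1, chr10:26860959-26861208, reverse strand: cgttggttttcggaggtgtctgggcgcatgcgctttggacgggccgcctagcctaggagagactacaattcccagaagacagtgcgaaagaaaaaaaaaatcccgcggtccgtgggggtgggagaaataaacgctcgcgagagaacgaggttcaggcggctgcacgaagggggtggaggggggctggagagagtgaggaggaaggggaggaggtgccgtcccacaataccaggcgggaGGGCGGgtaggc

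The CYFIP2 and EVL stretches hold 5 SP boxes each, which in EVL overlap once, and the ABI1 stretch holds 1. Of all 27305 promoter stretches of the same length 42.3% hold at least 1. An E-box is found in EVL only among the 9 members with an entry, and in 6.49% of all promoters. No TATA box (TATAAA) and no AP-1 site (TGANTCA) is found in these 9 stretches, against 11.1% and 6.60% of all promoters. The CCAAT box (CCAAT), found in 33.04% of all promoters, occurs in WASF3 alone, in 2 places. The stretches of WASF3 (26557433 to 26557682) and ENAH (225653124 to 225653373) lie inside the spans given for these genes below. All motifs were read on both strands, and a match describes the letters alone. The share of G and C was 76.4% in CYFIP2 and 76.8% in EVL, above that of 92.2% and 92.9% of all promoters, and 61.2% in ABI1, near the median of 58.0% over all promoters. ABI2, with 78.0%, fell slightly, and ENAH, with 80%, did not pass. A high GC content was thus found in genes that rose, that fell and that did not pass.

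The 2 ABI genes moved in opposite directions. ABI1 (chromosome 10, 26746596 to 26860958, reverse strand) encodes an adaptor that links WASF proteins to ABL kinases and to Ena/VASP. It stood at 53.9, 54.5 and 52.3 CPM in the control libraries and at 82.8, 83.6 and 83.8 CPM in the inactivated ones. The groups lie far apart next to their spread, and ABI1 rose 1.56-fold (95% interval 1.46 to 1.66, edgeR adjusted p 2.1e-10). ABI2 (chromosome 2, 203328394 to 203432169, forward strand), its paralog with the same place in the complex, stood at 134, 133 and 127 against 106, 116 and 111 CPM. Every inactivated library was below every control library, but the level fell by 15.5% only (log2 fold change -0.24 ± 0.044, edgeR adjusted p 1.0e-04). PDSS1, whose exons share 203 bases with those of ABI1 on the opposite strand, was at a log2 fold change of 0.0057 (edgeR adjusted p 0.932), and no source used here says whether counting used the strand.

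The 3 WASF genes each did something different. WASF1 (chromosome 6, 110099819 to 110179670, reverse strand), the form best known from neurons, stood at 87.0, 91.0 and 95.4 CPM in control and 117, 117 and 119 CPM in inactivated libraries. It rose 1.29-fold (log2 fold change 0.37 ± 0.044, edgeR adjusted p 5.8e-07), with no overlap. WASF2 (chromosome 1, 27404230 to 27490167, reverse strand), the broadly expressed form, stood at 212, 201 and 196 against 186, 201 and 203 CPM. Its groups overlapped, and the 95% interval of its fold change ran from 0.907 to 1.04 (edgeR adjusted p 0.415). WASF3 (chromosome 13, 26539139 to 26688948, forward strand), a form linked to the motility of tumour cells, stood at 99.3, 97.5 and 92.5 against 60.6, 63.3 and 64.5 CPM. It fell by 34.9% (log2 fold change -0.62 ± 0.045, edgeR adjusted p 7.7e-10), again without overlap.

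CYFIP2 (chromosome 5, 157266123 to 157395594, forward strand) encodes the subunit through which RAC reaches the complex. It stood at 67.0, 62.0 and 62.2 CPM in control and 18.2, 17.1 and 19.8 CPM in inactivated libraries. CYFIP2 fell 3.49-fold (log2 fold change -1.80, 95% interval -1.93 to -1.68, edgeR adjusted p 5.7e-15), and 95.02% of all tested genes changed by less. NCKAP1 (chromosome 2, 182909115 to 183038457, reverse strand), the large scaffold bound to the CYFIP subunit, stood at 373, 374 and 353 against 344, 365 and 357 CPM. The groups overlapped, with a 95% interval of 0.910 to 1.03 for the fold change (edgeR adjusted p 0.369). BRK1, the smallest subunit and no member of the 10, fell from 177 ± 1.88 to 127 ± 5.53 CPM (SD, n = 3), a log2 fold change of -0.48 ± 0.043 (edgeR adjusted p 1.3e-08).

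CYFIP1 (chromosome 15, 22867052 to 22980898, reverse strand), the paralog of CYFIP2, could not be tested. It had 2, 4 and 7 counts in the control libraries and 13, 11 and 4 counts in the inactivated ones, at most 0.355 CPM, while 3 counts alone equal 0.0612 to 0.0895 CPM. The table lists CYFIP1 3 times, on chromosome 15 and as 2 entries on alternate or patch sequences, and one of these matches the exon length of the first, 7987 against 7986 bases. All 3 entries together held 38, 61 and 33 counts in control and 42, 70 and 31 counts in inactivated libraries, and the groups overlapped. Of 1015 protein-coding genes with an alternate entry of like exon length (within 5%), 95.7% were below 1 CPM, against 39.5% of 17951 with no such entry. A level this low therefore does not show that CYFIP1 mRNA was absent, and no source used here says how reads matching several entries were treated.

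Of the Ena/VASP genes, EVL rose. EVL (chromosome 14, 99971422 to 100144236, forward strand) stood at 37.3, 36.5 and 39.0 CPM in control and at 63.0, 60.0 and 59.3 CPM in inactivated libraries. The lowest inactivated library lay well above the highest control library, and EVL rose 1.62-fold (95% interval 1.51 to 1.73, edgeR adjusted p 3.9e-10). ENAH (chromosome 1, 225486829 to 225653878, reverse strand), also called Mena, had the highest CPM of the 10 genes, with 1059, 1081 and 1073 against 1094, 1172 and 1145. All inactivated libraries were above all control libraries, yet the difference was 6.16% and did not pass (log2 fold change 0.086 ± 0.043, edgeR adjusted p 0.0957). It passed with DESeq2 (adjusted p 0.0446) and with upper quartile scaling in edgeR (adjusted p 0.0396). VASP, the third Ena/VASP gene and no member here, rose from 34.3 ± 0.612 to 42.2 ± 1.71 CPM (log2 fold change 0.30 ± 0.051, edgeR adjusted p 5.4e-05).

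Within families, all 5 ratios that could be formed differed between the groups in these libraries. A ratio of CPM per kilobase of exon was taken in each library, and the change of such a ratio between groups does not depend on the lengths used. The ABI1 to ABI2 ratio was 0.510, 0.521 and 0.524 in control and 0.990, 0.919 and 0.959 in inactivated libraries, a log2 change of 0.88. The WASF1 to WASF3 ratio was 1.79, 1.91 and 2.11 against 3.95, 3.80 and 3.78, a log2 change of 0.99 and the widest of the 5. WASF1 to WASF2 changed by 0.42, WASF3 to WASF2 by -0.57 and EVL to ENAH by 0.61. No ratio overlapped between groups, and each gave 0.1 in a two-sided exact permutation test (adjusted 0.1 over the 5), the smallest p that 3 against 3 libraries allow.

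**Figure D2:**
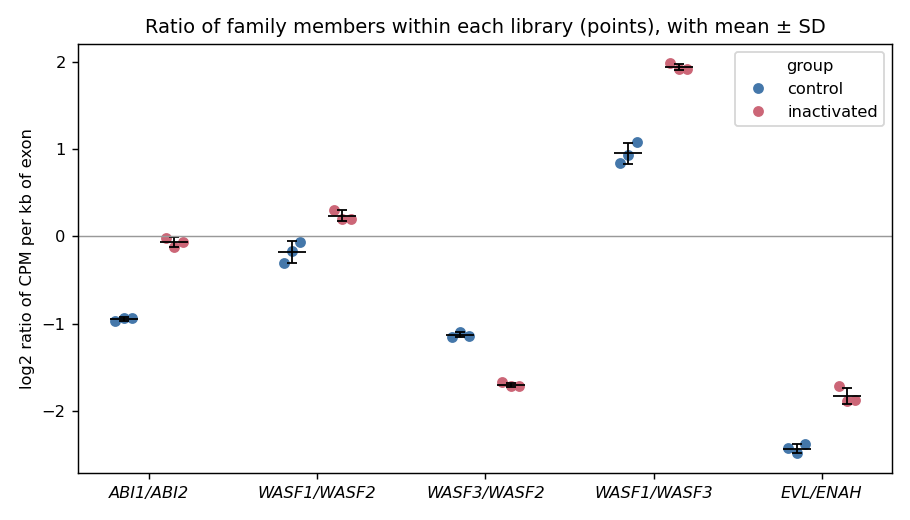
Log2 ratio of CPM per kilobase of exon of 2 genes of a family (y axis) for 5 gene pairs (x axis) in each of 3 control and 3 inactivated libraries (points), with bars for mean ± SD. For every pair the control and inactivated libraries stand apart, most of all for WASF1/WASF3, at 0.95 against 1.94.

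Per kilobase of summed exon length, the 3 WASF genes together came to 83.6 ± 0.564 in control and 86.1 ± 2.25 in inactivated cells (CPM per kilobase, SD, n = 3), and the groups overlapped. The sum in inactivated cells was 1.03 times that in control cells, since WASF1 rose while WASF3 fell. WASF1 made up 37.8% ± 1.97 of that sum in control and 47.4% ± 0.928 in inactivated cells, WASF2 42.7% ± 1.43 and 40.2% ± 0.859, and WASF3 19.5% ± 0.622 and 12.3% ± 0.0761. Without division by exon length these shares were 23.4% and 31.2% for WASF1, 52.0% and 52.1% for WASF2, and 24.7% and 16.6% for WASF3. The lower share of WASF2 thus depends on the lengths. In control cells the order of levels per kilobase was WASF2 (35.7), WASF1 (31.6), ENAH (30.1), NCKAP1 (18.02), ABI2 (17.7), WASF3 (16.3), ABI1 (9.16), CYFIP2 (8.53) and EVL (5.57). Of these neighbours, WASF1 and ENAH, and NCKAP1 and ABI2, differed by no more than the larger of their SDs. In inactivated cells WASF1 led with 40.8, ABI1 with 14.3 stood next to ABI2 with 14.9, and CYFIP2 with 2.45 was the lowest of the tested genes. BRK1 had a higher level per kilobase than any of them, 154 ± 1.63 and 110 ± 4.81. These orders hang on the exon lengths, since with the longest coding transcript in GENCODE 29 the length of ABI2 is 22209 in place of 7438 bases and that of ENAH 13168 in place of 35546. The sum of ABI1 and ABI2 was 1.09 times the control level with the first set of lengths and 1.35 times with the other.

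Some of the members lie in stretches of the genome whose genes moved together in these cells. WASF1 had 78 tested genes within 10 Mb, with a median log2 fold change of 0.42, close to its own 0.37. ENAH had 115 such neighbours with a median of 0.34, above its own 0.086. For CYFIP2, EVL, ABI1, WASF3 and ABI2 the medians were -0.11, -0.11, -0.12, -0.12 and 0.011, so their changes were as large or larger when set against their neighbours, except for a slightly smaller one in CYFIP2 and WASF3. CYFIP2 was lower than its neighbours' median by a log2 of -1.69, WASF3 by -0.50, and EVL and ABI1 were higher by 0.80 and 0.76. The medians depend on the window. Within 5 Mb and over the whole chromosome they were 0.42 and 0.51 for WASF1, and 0.35 and 0.046 for ENAH. For WASF2 and NCKAP1 they were -0.039 and 0.031 within 10 Mb, and 0.026 and -0.14 within 5 Mb. What part the neighbourhood had in the rise of WASF1 was not tested.

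**Figure D3:**
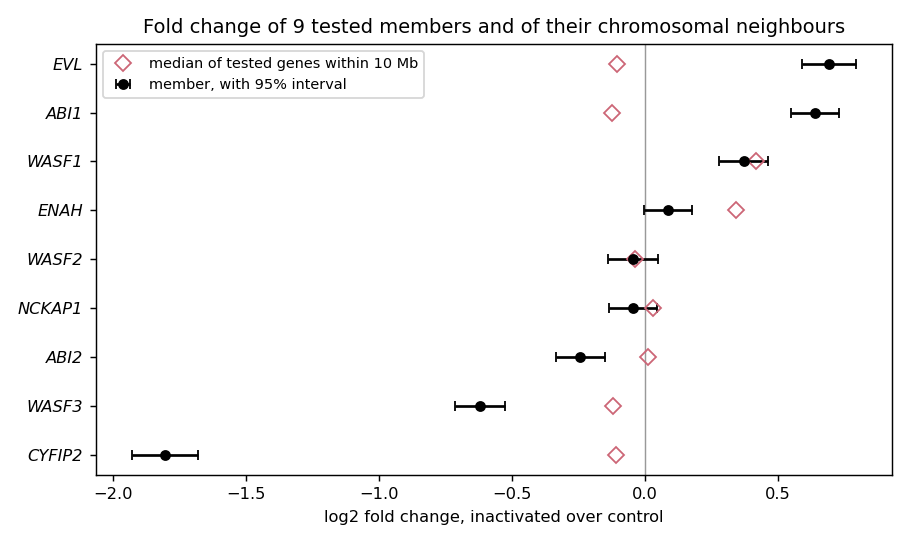
Log2 fold change, inactivated over control (x axis), of the 9 tested members with its 95% interval (black points) and the median of the tested genes within 10 Mb of each (open diamonds). WASF1 lies on its neighbours' median, ENAH below it, and CYFIP2, WASF3, ABI1 and EVL lie far from theirs.

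Around the members, 108 further genes of actin nucleation were read from the same test, and 36 rose, 30 fell and 34 did not pass among the 100 with enough reads. This is 66.0% called beside 59.3% of all genes, and 21.0% called at 1.5-fold or more beside 24%. By list the latter share ran from 0% to 41.7%. The highest were binding partners of the WAVE complex (41.7%) and Ena/VASP partners (40%), near the 44.4% of the members. Their median log2 fold change was 0.052. In the ARP2/3 complex, the target of WAVE, 4 of 10 subunit genes rose and 3 fell. ARPC4 fell from 151 ± 5.76 to 90.3 ± 6.73 CPM and ACTR3B, a variant of the ACTR3 subunit, from 20.6 ± 1.47 to 10.04 ± 0.351 CPM. ARPC5 rose from 130 ± 1.78 to 162 ± 3.02 CPM. ARPC4 and BRK1 lie in one part of chromosome 3 where the median log2 fold change of neighbours within 10 Mb was -0.63 for both, beside their own -0.74 and -0.48. ARPC5 had a neighbour median of 0.26 beside its own 0.33.

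Among the other nucleation promoting factors and their partners, 3 of 12 rose and 5 fell, none by 1.5-fold. Of all genes tested 29.6% rose, 29.7% fell and 24% were called at 1.5-fold or more. In the lists from here on 50% to 69.2% of tested genes were called, beside 59.3% of all genes. WIPF1 and WIPF2, which bind and steady the WASP proteins, went apart, from 25.5 ± 0.515 to 17.4 ± 0.563 CPM and from 65.1 ± 1.94 to 86.8 ± 1.68 CPM. WIPF2 had a neighbour median of 0.50 beside its own log2 fold change of 0.42. WHAMM, a nucleation factor of membranes, fell from 14.9 ± 0.1203 to 11.2 ± 0.539 CPM. Of 17 tested genes of RAC GTPases and their activators, 6 rose and 5 fell. SOS2 rose from 31.7 ± 1.35 to 52.6 ± 3.67 CPM and TIAM1, a RAC exchange factor, from 9.503 ± 0.265 to 13.5 ± 0.718 CPM, while the exchange factor gene VAV2 fell from 35.0 ± 2.11 to 23.9 ± 0.708 CPM.

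Of 12 binding partners of the WAVE complex 5 rose and 3 fell, with a median log2 fold change of 0.073. PCDH10, a protocadherin, rose from 1.45 ± 0.136 to 11.7 ± 0.0935 CPM (log2 fold change 3.02 ± 0.11), its relative PCDH19 from 3.44 ± 0.144 to 17.2 ± 0.823 CPM (2.32 ± 0.085) and the axon guidance receptor ROBO1 from 112 ± 2.61 to 234 ± 9.94 CPM (1.06 ± 0.044). PCDH17, another protocadherin of the list, stood at 0.705 ± 0.0433 against 0.596 ± 0.0667 CPM and did not pass (edgeR adjusted p 0.446). Of 10 tested Ena/VASP partners 4 rose and 2 fell. APBB1IP, the RAP1 effector RIAM, rose from 4.26 ± 0.375 to 7.898 ± 0.345 CPM, and TRIM9, a ubiquitin ligase of axon branching, fell from 14.5 ± 0.239 to 8.68 ± 0.578 CPM. LPP, a zyxin relative, fell from 53.3 ± 2.06 to 46.3 ± 5.45 CPM (edgeR adjusted p 0.0142), with overlapping groups.

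Of genes that limit or undo branching, 2 of 8 tested rose and 2 fell. CORO1A, a coronin best known from blood cells, rose from 13.9 ± 0.193 to 55.7 ± 2.55 CPM (log2 fold change 2.003 ± 0.057). The 5 blood cell markers summed to 0.506 to 1.02 CPM in control and 0.547 to 1.01 CPM in inactivated libraries. Most of this was CD68, at 0.614 and 0.757 CPM, and CD3E had no read. CORO1C fell from 328 ± 3.20 to 287 ± 4.10 CPM and CORO2B rose from 14.6 ± 0.371 to 16.9 ± 1.28 CPM. Of 13 formins, which build unbranched filaments, 6 rose and 3 fell, among them FHOD1 from 5.36 ± 0.0813 to 10.03 ± 0.501 CPM, FMN2 from 4.97 ± 0.0679 to 7.16 ± 0.386 CPM and FMNL3 from 27.4 ± 0.437 to 18.3 ± 1.37 CPM. FMN2 had a neighbour median of 0.26 on chromosome 1 beside its own log2 fold change of 0.53. Of 16 genes of actin, capping and severing 5 rose and 6 fell. CFL2, a cofilin, rose from 123 ± 3.90 to 240 ± 1.23 CPM. LIMK1, a kinase that inactivates cofilins, fell from 34.8 ± 0.969 to 14.3 ± 0.7897 CPM, with a neighbour median of -1.07 on chromosome 7 beside its own log2 fold change of -1.28. SSH1, a cofilin phosphatase, fell from 146 ± 6.48 to 111 ± 4.42 CPM.

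**Figure D4:**
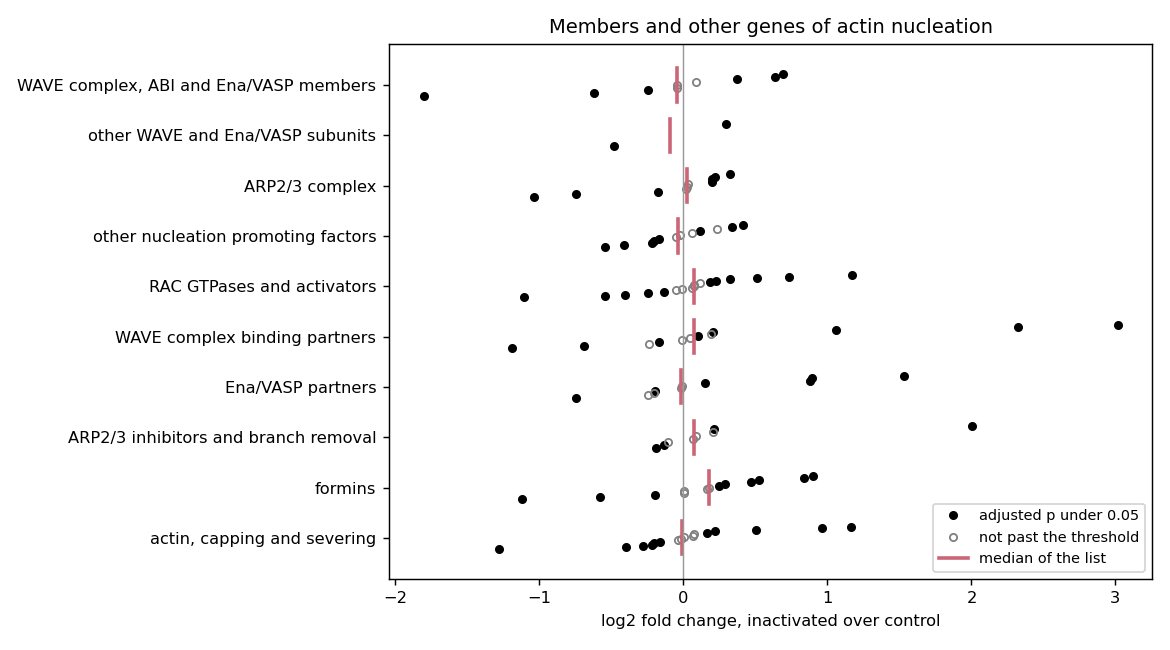
Log2 fold change, inactivated over control (x axis), of each tested gene (points, height within a row without meaning) of the members and of 9 further gene lists (rows), filled where the adjusted p is under 0.05, with the list median as a red line. Each list holds genes on both sides of 0, the members reach from -1.80 to 0.69, and PCDH10 stands farthest out at 3.02.

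The likeness of the members to each other and to the genes of these lists was taken over the 6 libraries, for a member against 108 other tested genes. It was the Euclidean distance between centred log2 CPM profiles. Libraries of a group lay close together, so these distances largely restate the differences in log2 fold change given above. ABI1 and EVL were nearest to each other, at a distance of 0.15, and the next nearest were SOS2 to ABI1 (0.18) and FMN2 to EVL (0.23). WASF3 was nearest to FMNL3 (0.15) and WIPF1 (0.16). CYFIP2 had no close match, with LIMK1 at 0.65 and CYRIA, whose product binds RAC, at 0.82. CYRIA itself was low, at 0.664 ± 0.111 against 0.289 ± 0.0147 CPM.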

How the data were processed

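RNA of D283 cells was sequenced in 12 lane-level samples, which are 6 libraries on 2 lanes each. The authors deposited raw counts for every gene in each lane, without normalization. A column headed Length is deposited too and was taken as the summed exon length in bases. Per the submitters' processing notes, STAR 2.7.2b, featureCounts 1.6.3 and DESeq2 1.36.0 were used with GRCh38.p14. Lanes were summed, 26 genes without counts were left out, and genes were filtered with filterByExpr (minimum count 10, minimum total count 15). TMM scaling and the two-sided quasi-likelihood test of edgeR 4.0.16 were applied over all genes, with Benjamini-Hochberg adjustment and a threshold of 0.05. Rose and fell are used of genes past it. The procedure was tested on simulated data. The planned ratio of CYFIP1 to CYFIP2 was not formed, since CYFIP1 did not pass the filter. Of each list, up to 3 genes past the threshold with at least 5 CPM in the higher group and the largest change were named, beside the members. PDSS1, NIPA2, PCDH17 and the genes of the closing section were picked with their values in view. The result of 1 marker list is not reported here. The members and lists were chosen with earlier results of these data known. Promoter sequences are from RefSeq (GRCh38.p14). A gene with no read can hold up to 3 counts. This floor covers counting error only. Alternatives were other scalings, no filter, DESeq2 1.42.0, limma-voom (limma 3.58.1), each lane alone and leaving out each library.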

Additional observations from a re-analysis of the deposited data

How the results depend on the processing

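The direction of all 9 tested members held under the 13 other settings run, and of 117 values 115 kept their side of the threshold. The other 2 are ENAH, which passed with DESeq2 and with upper quartile scaling. Over all settings the log2 fold change of CYFIP2 lay between -1.86 and -1.74, that of ABI1 between 0.60 and 0.69 and that of EVL between 0.67 and 0.72. The number of members called was 6 or 7, with 4 at 1.5-fold or more under each setting, and that of all genes called was 7468 to 9328. The family ratios kept their direction with each library left out and in each lane. The share of ABI1 in the sum of both ABI genes depends on the lengths: in control it was 34.1% with summed exon lengths and 71.7% with the longest GENCODE transcript, an alternative chosen after seeing the data, and it was higher in inactivated cells with both (48.9% and 82.3%). No paired analysis was possible because the labels number each library on its own and no number is shared between groups.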

Other observations

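Several listed genes other than CYFIP1 have an alternate entry in the table and low counts. ACTG1, the cytoplasmic gamma actin gene, had 1051 counts over all 6 libraries, a mean of 4.71 CPM by library total, and its alternate entry of the same exon length had 1 count. ACTB, the beta actin gene with no such entry, stood at 2809 ± 93.3 CPM in control and 2312 ± 121 CPM in inactivated libraries (SD, n = 3), and fell (edgeR adjusted p 6.7e-05). ZYX, which encodes the Ena/VASP ligand zyxin, had 4 counts and 12 in its alternate entry, and CTTN, the cortactin gene, had 46 and 0. The alternate entries of ZYX and CTTN have 63.2% and 79.8% of the exon length of the first, outside the 5% limit used above.

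Of the 6 tested genes nearest to ABI1 on chromosome 10, 4 rose and 2 did not pass. Of all genes tested 29.6% rose and 29.7% fell. The median log2 fold change of the 72 tested genes within 10 Mb of ABI1 was -0.12. APBB1IP, 179 kb away, rose with a log2 fold change of 0.89 ± 0.1 (edgeR adjusted p 3.1e-07). ACBD5, MASTL and YME1L1 rose by less, with 0.28 ± 0.044, 0.26 ± 0.042 and 0.12 ± 0.042. PDSS1, which overlaps the end of ABI1, and ANKRD26, 86.6 kb away on the other side, were at 0.0057 and 0.062 and did not pass.

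RAC1, the GTPase that activates the WAVE complex, fell from 188 ± 6.22 to 142 ± 5.99 CPM (log2 fold change -0.40 ± 0.044, edgeR adjusted p 2.2e-07), while RAC3 and CDC42 stood at 0.11 ± 0.067 and 0.075 ± 0.047 on the log2 scale and did not pass.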
